A study of Mus musculus with 6 samples.

Results

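Krüppel-like factors (KLFs) are transcription factors that bind GC-rich and CACCC-containing DNA through C2H2 zinc fingers at their C-terminal end. Some members mainly activate genes and others mainly repress them through the corepressors CtBP or SIN3. Klf1, the founding member, drives the erythroid programme. The genes described here are 10 other members listed for this account, namely Klf2, Klf3, Klf4, Klf6, Klf7, Klf9, Klf10, Klf11, Klf12 and Klf13, found by Entrez identifier among the 21761 genes of the count table. They were listed by name, without a threshold on a measured value, and with earlier results of these data known. Of the 10, 9 passed the filter on low counts and were tested, and Klf2 did not pass.

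The RNA came from long-term haematopoietic stem cells (LT-HSCs), which sit at the top of the blood hierarchy in the marrow and renew themselves. The IMP1 group (Rosa26 I/+;Mx1-Cre tg/+) carried a conditional knock-in at the Rosa26 locus of IMP1, the Igf2bp1 product, which binds mRNAs and is mainly fetal. The Control group (Rosa26 +/+;Mx1-Cre tg/+) carried the Cre transgene without it. In both groups CD45.2 donor marrow was transplanted into lethally irradiated CD45.1/2 mice, and all mice received poly(I-C), an interferon-inducing RNA that switches on Mx1-Cre in blood cells and in other interferon-responsive cells. At 8 weeks after the last injection, 200 CD45.2+ LSK CD150+ CD48- CD34- cells were sorted for each library, with 3 biological replicates per genotype. The sources used here do not give ages, or which animals gave which library.

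IMP1 libraries held 50220629 to 67083116 counts and Control libraries 25749898 to 27338450, so the genotypes differ in depth. The labels name no batch. Igf2bp1 had 32.8 CPM (TMM-normalised counts per 1000000 counts of the library) on average in IMP1 cells and 0.0133 CPM in Control cells. All 10 LT-HSC markers listed were detected and tested, with a summed level of 2051 to 2287 CPM in IMP1 and 1578 to 1789 CPM in Control libraries. Cd34, whose protein the sort selected against, had 212.5, 140.8 and 151 CPM of RNA in IMP1 libraries, against 263, 317 and 270.0 CPM in Control libraries. The other 2 gate-negative markers had positive log2 fold changes and overlapping groups, at 0.73 for Cd48 (edgeR adjusted p = 0.804) and 0.84 for Flt3 (adjusted p = 0.549). Markers of other cells were uneven. Neutrophil markers summed to 525, 191 and 17.6 CPM in IMP1 1, 2 and 3, against 17.7 to 45.9 CPM in Control libraries. Ngp, Camp, S100a8 and Ltf made up the high sums, whereas Mpo had 0.031, 0 and 0 CPM in IMP1 libraries and 25.3, 7.40 and 0.360 CPM in Control libraries, and Elane had a log2 fold change of -1.48 with overlapping groups. Erythroid markers, for which 5 of 6 genes were in the table, summed to 292, 61.8 and 71.7 CPM in IMP1 1, 2 and 3 and to 17.3 to 31.5 CPM in Control libraries.

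KLF genes are described as regulating one another through CACCC elements, so the bases before their transcription starts are shown. RefSeq promoters (GRCm38.p6) were found for 9 of the 10 members. The 250 bases before the annotated start are printed for Klf13, the member with the highest Control level, for Klf12, the member with the largest fitted fold among the 9 tested, and for Klf3, which holds the most CACCC cores. They are written 5′ to 3′ on the strand of the gene, with each CACCC core, read on either strand, in capitals.
Klf13 (chr7:63938916-63939165, minus strand): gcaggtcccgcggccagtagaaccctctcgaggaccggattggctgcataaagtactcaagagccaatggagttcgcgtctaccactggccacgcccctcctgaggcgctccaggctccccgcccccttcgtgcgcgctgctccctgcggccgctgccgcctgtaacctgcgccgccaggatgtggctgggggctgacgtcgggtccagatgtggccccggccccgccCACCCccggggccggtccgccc
Klf12 (chr14:100149797-100150046, minus strand): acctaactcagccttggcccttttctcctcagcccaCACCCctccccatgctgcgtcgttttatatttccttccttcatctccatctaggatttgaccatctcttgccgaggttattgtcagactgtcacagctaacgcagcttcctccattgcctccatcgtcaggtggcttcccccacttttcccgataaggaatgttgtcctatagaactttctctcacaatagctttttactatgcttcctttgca
Klf3 (chr5:64803271-64803520, plus strand): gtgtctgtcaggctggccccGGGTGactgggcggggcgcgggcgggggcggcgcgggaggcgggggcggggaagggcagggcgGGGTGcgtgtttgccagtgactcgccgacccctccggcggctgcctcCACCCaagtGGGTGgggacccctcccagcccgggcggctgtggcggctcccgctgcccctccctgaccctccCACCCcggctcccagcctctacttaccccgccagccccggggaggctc

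The CACCC core was present in 6 of the 9 promoters, with 5 matches in Klf3, 3 in Klf7 and 1 each in Klf2, Klf9, Klf12 and Klf13. Among 27025 promoters of the same length, 51.3% held it. No member held TGACGTCA (the cyclic AMP response element), against 1.62% of all promoters, or CCGGAAGT (an ETS site), against 2.93%, in 0 of 9 each. TGANTCA, the AP-1 site, was found in Klf9 alone among the 9 and in 6.87% of all promoters. All motifs were searched on both strands and may overlap. Most of the 9 were rich in GC, with a median content of 71.2% against 52.0% over all promoters, and Klf12 was the lowest of them at 48.0%. These matches are letters in a window and are not measured binding sites.

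Klf13 and Klf10 carried most of the KLF signal of these stem cells. Klf13, first described as an activator of the chemokine gene Ccl5 in T cells, and Klf10, an early gene induced by TGF-β that recruits SIN3, together took 82.8% to 85.3% of the summed CPM of the 10 members in IMP1 libraries and 81.2% to 86.9% in Control libraries. Within that sum the balance differed. Klf10 made up 33.0%, 44.7% and 36.3% in IMP1 libraries, against 18.2%, 20.4% and 12.8% in Control libraries. Klf13 made up 49.8%, 39.7% and 49.0% in IMP1 libraries, against 66.7%, 66.5% and 68.4% in Control libraries. The shares of each gene did not overlap between the groups. These shares are parts of the same sum and together varied little, so a higher Klf10 share goes with a lower Klf13 share. The gaps in Klf10 and Klf13 shares are therefore not separate observations, and they were not tested. In CPM, the groups did not overlap for 21.9% of all tested genes. The Klf10 to Klf13 ratio of CPM was 0.663, 1.12 and 0.740 in IMP1 libraries and 0.272, 0.307 and 0.187 in Control libraries, a description with no test, since it was formed after the values were seen.

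**Figure D1:**
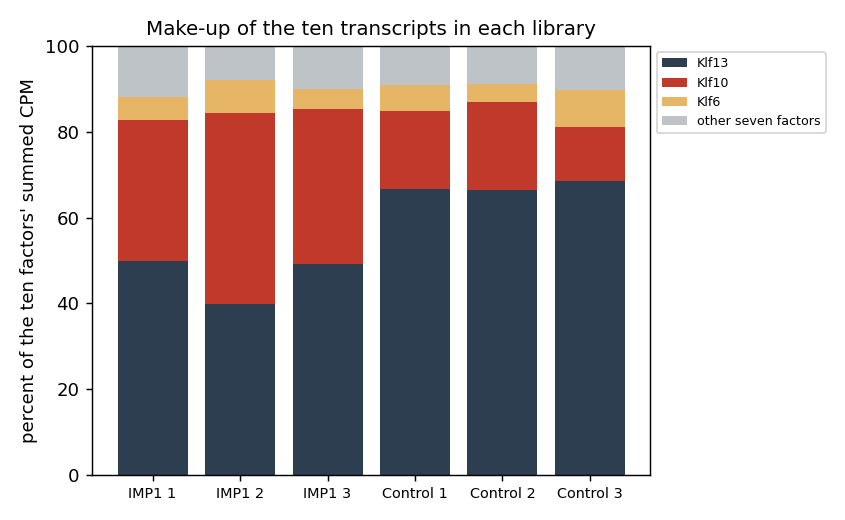
Stacked bars give each gene's percent of the summed TMM-normalised CPM of the 10 members (y axis) in each of the 6 libraries (x axis). The Klf10 portion is 33.0% to 44.7% in the IMP1 libraries and 12.8% to 20.4% in the Control libraries.

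To compare levels between genes, CPM was divided by the length of the longest annotated transcript. On that scale Klf10 stood at 49.1, 84.9 and 57.7 CPM per kilobase in IMP1 libraries and at 30.7, 26.0 and 17.6 in Control libraries. Klf13 stood at 35.3, 35.9 and 37.1 CPM per kilobase in IMP1 libraries and at 53.7, 40.3 and 44.9 in Control libraries. On this scale Klf10 was thus above Klf13 in each IMP1 library and below it in each Control library. In CPM, Klf10 was above Klf13 in IMP1 2 alone. The order in IMP1 1 and IMP1 3 therefore depends on the lengths used, 3044 bases for Klf10 and 6396 for Klf13. Which transcripts of each gene were expressed is not known from these counts. Klf6 came next in both groups, at 7.09 ± 2.83 CPM per kilobase in IMP1 and 6.62 ± 2.48 in Control cells (SD, n = 3).

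Below Klf6, the per-kilobase order in IMP1 cells was Klf9 (3.15), Klf11 (2.85), Klf3 (2.09), Klf12 (1.65), Klf7 (0.301), Klf4 (0.214) and Klf2 (0.191). In Control cells it was Klf9 (4.17), Klf3 (1.90), Klf11 (1.32), Klf7 (0.525), Klf12 (0.403), Klf4 (0.228) and Klf2 (0.0214). The library ranges of neighbours overlapped from Klf9 down to Klf12 and again from Klf7 down to Klf2 in IMP1 cells. In Control cells they overlapped between Klf6 and Klf9 and at each step from Klf3 down to Klf2. Among the members below Klf6, only Klf12 changed place with a gap, and only in IMP1 cells. Its IMP1 values of 1.84, 1.30 and 1.80 CPM per kilobase lay above all IMP1 values of Klf7 (0.244, 0.250 and 0.410). In Control cells its values of 0.370, 0.275 and 0.564 CPM per kilobase overlapped those of Klf7 (0.309, 0.305 and 0.961).

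Whether IMP1 re-expression went with a change in these transcripts was tested per gene over all 12807 tested genes. None of the 9 tested members passed an adjusted p of 0.05 by edgeR (0 of 9), where 0.211% of all tested genes did. At an unadjusted p under 0.05 there were 3 members, Klf10 and Klf12 with higher and Klf13 with lower values in IMP1 cells, or 33.3% of the tested members against 14.3% of all tested genes (6.67% higher and 7.63% lower). At an adjusted p under 0.1 there was 1 member, Klf10, against 1.8% of all tested genes. DESeq2 called 2 of the 9 members, Klf10 and Klf12, where it called 7.02% of all genes with an adjusted p. The groups did not overlap for 4 of the 9, namely Klf10 and Klf12 (higher) and Klf9 and Klf13 (lower), or 44.4%, against 21.9% of all tested genes (10.7% higher and 11.1% lower). The median log2 fold change was 0.10 over the 9 members, with 5 positive and 4 negative, and 0.03 over all tested genes.

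**Figure D2:**
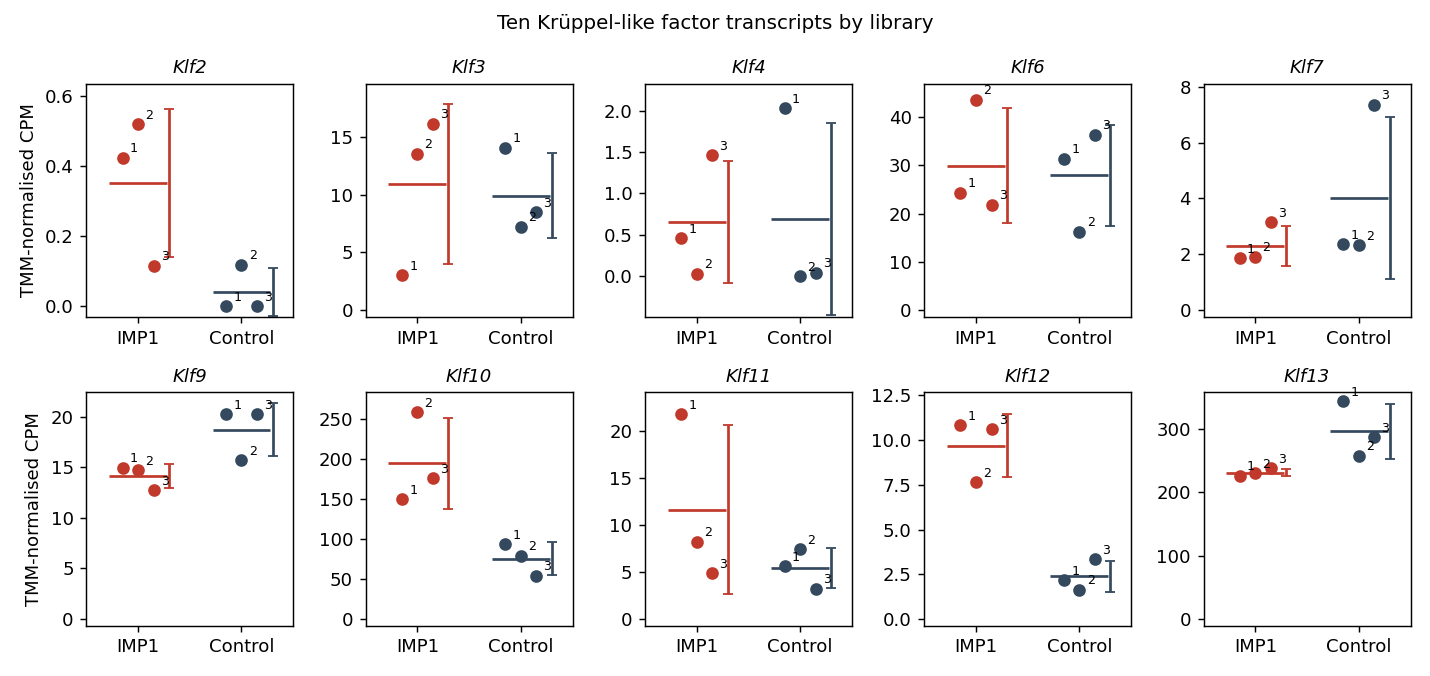
Points are TMM-normalised CPM (y axes, linear, different scale in each panel) of each member in the IMP1 libraries (left) and Control libraries (right), numbered by replicate. Horizontal lines are means and vertical bars 1 SD (n = 3). Klf10 and Klf12 lie higher and Klf9 and Klf13 lower in all IMP1 libraries, and the other panels overlap.

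Klf10 had the lowest p of the 9 tested members. Its level was 149.6, 258 and 176 CPM in IMP1 libraries, against 93.5, 79.0 and 53.7 CPM in Control libraries. The lowest IMP1 library was 1.60 times the highest Control library, and IMP1 2 stood above its own group. The means were 194.6 ± 56.8 CPM in IMP1 and 75.4 ± 20.2 CPM in Control cells (SD, n = 3), a ratio of 2.58. The fitted log2 fold change was 1.37 (SE 0.27, 95% interval 0.76 to 1.98, edgeR adjusted p = 0.0831), short of the threshold. By DESeq2 the adjusted p was 3.83e-05, and a filter asking for at least 10 counts in every library gave an edgeR adjusted p of 0.0339. Over the 18 alternatives its adjusted p ran from 3.83e-05 to 0.215 and its log2 fold change from 1.11 to 1.55, positive in all 18. Thinning all libraries to one depth left the log2 fold change at 1.38.

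The library with the highest Klf10, IMP1 2, was also the highest IMP1 library for 16 of the 20 tested immediate-early genes. IMP1 1 was the highest for 3 and IMP1 3 for 1. Such genes respond within minutes to stimuli, cell handling included. The share of all tested genes that were highest in IMP1 2 was not computed, so the count has no background beside it. The immediate-early genes summed to 610, 818 and 522 CPM in IMP1 1, 2 and 3 and to 790, 701 and 712 CPM in Control 1, 2 and 3. Myc was the largest single part of each sum. It had 270, 189 and 206 CPM in IMP1 1, 2 and 3, against 379, 399 and 368 CPM in Control 1, 2 and 3. The sums therefore partly reflect the lower Myc of the IMP1 libraries. Without IMP1 2 the log2 fold change of Klf10 was 1.11 (SE 0.25, edgeR adjusted p = 0.203). IMP1 2 also held 1170 counts of Cd79a and 986 of Ebf1, both B cell genes with at most 6 counts in any other library, while Pax5 had 0 counts in all 6 libraries. The 6 B cell markers, mostly Cd79b, summed to 79.9 to 113.9 CPM in IMP1 and 71.6 to 85.5 CPM in Control libraries. The part of the immediate-early and B cell genes in the Klf10 difference was not tested. Of the 20 immediate-early genes, none was called by edgeR (0 of 20, with 4 at an unadjusted p under 0.05), and DESeq2 called 3, Fos higher and Btg2 and Myc lower. Of all tested genes 0.211% were called by edgeR and 14.3% had an unadjusted p under 0.05, and DESeq2 called 7.02% of its genes. The median log2 fold change of the 20 immediate-early genes was 0.77, and 13 were above 0. Myc, a growth regulator, stood at 222 ± 43.1 CPM in IMP1 and 382 ± 16.0 CPM in Control cells (adjusted p = 0.0760). Btg2, an antiproliferative gene, stood at 7.54 ± 3.19 and 28.1 ± 8.94 CPM in IMP1 and Control cells (adjusted p = 0.117).

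Klf11, the closest relative of Klf10 in function and likewise a TGF-β-inducible repressor that recruits SIN3, showed a wider spread. It had 21.9, 8.21 and 4.87 CPM in IMP1 libraries, against 5.60, 7.44 and 3.20 CPM in Control libraries. IMP1 1 was high and the other libraries of both groups overlapped. Its log2 fold change was 1.10 (SE 0.66, 95% interval -0.41 to 2.62, edgeR adjusted p = 0.511), and without IMP1 1 it was 0.27. IMP1 1 was also the library with the highest neutrophil and erythroid marker sums, and their part in the Klf11 value was not tested.

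Klf9 and Klf13, related GC-box factors of the same SIN3-recruiting branch, were both lower in all IMP1 libraries than in any Control library, without passing the test. Klf13 had 226, 229.7 and 237 CPM in IMP1 libraries, against 343, 258 and 287 CPM in Control libraries. The IMP1 values were close together (231 ± 5.92 CPM) and the Control values spread more widely (296 ± 43.6 CPM, SD, n = 3). The log2 fold change was -0.36 (SE 0.13, 95% interval -0.65 to -0.07, unadjusted p = 0.0225, edgeR adjusted p = 0.266), from -0.52 to -0.24 over 18 alternatives. In 0 of the 18 was it called.

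Klf9, which thyroid hormone and glucocorticoids induce, had 14.9, 14.7 and 12.7 CPM in IMP1 libraries, against 20.2, 15.7 and 20.3 CPM in Control libraries. Its log2 fold change was -0.41 (SE 0.31, edgeR adjusted p = 0.618). The gap between the groups, 14.9 against 15.7 CPM at its narrowest, was smaller than the SD of the Control libraries (2.65 CPM).

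Klf3 and Klf12 belong to the branch that represses through CtBP, and the groups were apart for Klf12 but overlapped for Klf3. Klf12, first described as a repressor of the AP-2α gene, had 10.8, 7.65 and 10.6 CPM in IMP1 libraries, against 2.18, 1.62 and 3.32 CPM in Control libraries. The lowest IMP1 value was 2.30 times the highest Control value. The means differed 4.08 times, with a log2 fold change of 2.03 (SE 0.56, 95% interval 0.74 to 3.31, unadjusted p = 0.00651, edgeR adjusted p = 0.164). DESeq2 gave an adjusted p of 0.00514, 1 of 18 alternatives in which it was called, and its highest was 0.330. The counts behind it were 691, 530 and 550 in IMP1 and 58, 41 and 83 in Control libraries.

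Klf3, a repressor that Klf1 induces in red cell precursors, had 3.05, 13.6 and 16.2 CPM in IMP1 libraries, against 14.1, 7.24 and 8.49 CPM in Control libraries. IMP1 1 was the lowest library of all 6 and the groups overlapped. Its log2 fold change was 0.14 (SE 0.64, 95% interval -1.33 to 1.60, edgeR adjusted p = 0.948), and its sign changed with the setting. The low Klf3 of IMP1 1 stood beside the highest Klf1 of the series, which had 19.0, 1.57 and 5.59 CPM in IMP1 libraries and 13.5, 3.64 and 2.88 CPM in Control libraries. The part of erythroid RNA in the Klf3 value was not tested.

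The activators Klf6 and Klf7 overlapped between the groups. Klf6, a broadly expressed factor that responds to injury, had 24.3, 43.7 and 21.9 CPM in IMP1 libraries, against 31.4, 16.2 and 36.3 CPM in Control libraries. IMP1 2 was the highest library and Control 2 the lowest. Its log2 fold change was 0.10 (SE 0.40, 95% interval -0.81 to 1.01, edgeR adjusted p = 0.937), with a sign that changed with the setting. Klf7, known best from developing neurons, had 1.87, 1.92 and 3.14 CPM in IMP1 libraries, against 2.37, 2.33 and 7.37 CPM in Control libraries. Control 3 alone stood high, and the log2 fold change of -0.80 (SE 0.77, edgeR adjusted p = 0.701) became -0.028 without it.

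Klf2 and Klf4, factors of lymphocyte quiescence, endothelium and monocytes, were near the lower limit of these libraries. Klf2 had 27, 36 and 6 counts in IMP1 libraries and 0, 3 and 0 in Control libraries, that is 0.424, 0.519 and 0.116 CPM in IMP1 and at most 0.119 CPM in Control. The summed counts, 69 and 3, gave a depth-corrected ratio of 9.56 with an exact 95% counting interval of 3.14 to 47.5. That interval treats each read as an independent draw and covers counting error only. The libraries were amplified without molecular identifiers, so it leaves out amplification and the spread between libraries. Since IMP1 3 lay below Control 2, the groups overlapped. Without the low-count filter its edgeR log2 fold change was 3.07 (unadjusted p = 0.158, adjusted p = 0.556). Without Control 2, which held all 3 Control reads, the fitted value was 7.07 (unadjusted p = 0.0198, adjusted p = 0.295), and since the remaining Control libraries are at 0 its size depends on the prior count.

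Klf4 had 29, 2 and 76 counts in IMP1 libraries and 54, 0 and 1 in Control libraries, so that a single library held most of its reads in each group. Its log2 fold change of -0.09 had a 95% interval of -4.34 to 4.16 (edgeR adjusted p = 0.990), and no difference was detectable at this level. Marker lists of the cells that express these genes strongly were detected in part, and their part in the Klf2 and Klf4 values was not tested. The 6 endothelial markers summed to 159.7 to 212.5 CPM in IMP1 and 96.3 to 188 CPM in Control libraries. Nearly all of it came from Tie1, Emcn and Egfl7, while Kdr averaged 2.80 CPM in IMP1 and 2.89 CPM in Control cells. Plvap averaged 0.382 and 0.543 CPM in IMP1 and Control cells, and Cdh5 had 0 counts in all 6 libraries. Of the 6 markers 5 were tested and 0 called by edgeR, where 0.211% of all tested genes were called. The 6 monocyte and macrophage markers summed to 266 to 314 CPM in IMP1 and 438 to 518 CPM in Control libraries, nearly all of it Lyz2, at 288 ± 23.0 CPM in IMP1 and 463 ± 45.9 CPM in Control cells (SD, n = 3; edgeR adjusted p = 0.0614). Csf1r had 0, 0 and 0 counts in IMP1 and 3, 0 and 47 in Control libraries. The 7 T cell markers summed to 16.9 to 28.6 CPM in IMP1 and 10.9 to 31.3 CPM in Control libraries, mostly from Lck. Cd3g had 0 counts in all 6 libraries. In bulk RNA, fewer cells of a kind and less RNA per cell cannot be told apart.

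**Figure D3:**
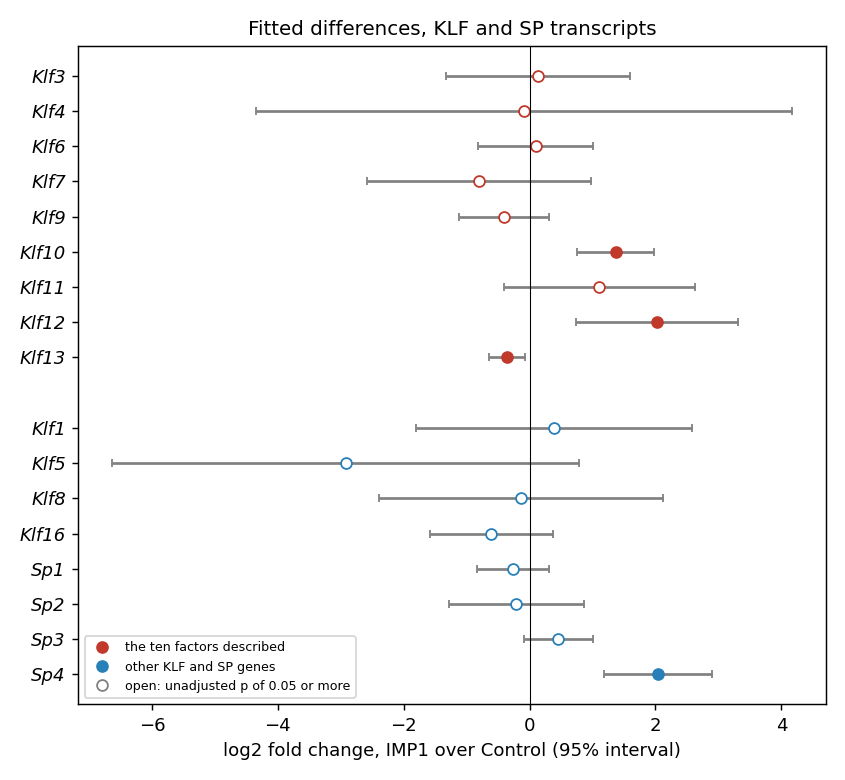
Fitted log2 fold change of IMP1 over Control (x axis) with its 95% interval for the 9 tested members (red, top) and the 8 tested other KLF and SP genes (blue, bottom). Filled points have an unadjusted p under 0.05, and none of them passed the adjusted threshold by edgeR. The intervals of Klf10, Klf12 and Sp4 lie above 0 and that of Klf13 below 0.

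The rest of the KLF and SP family was compared in the same fit. There 0.211% of all tested genes passed and 14.3% had an unadjusted p under 0.05. Of 16 other genes 8 were tested, 0 passed and 1 had an unadjusted p under 0.05, with a median log2 fold change of -0.17, 3 positive and 5 negative. That gene was Sp4, an SP factor known from neurons, which had 56.0, 38.7 and 32.4 CPM in IMP1 libraries, against 9.39, 6.93 and 14.6 CPM in Control libraries. The groups were apart, with a log2 fold change of 2.04 (SE 0.37, edgeR adjusted p = 0.0760, DESeq2 adjusted p = 1.38e-05). With at least 10 counts in every library its edgeR adjusted p was 0.0413. The abundant Sp1 stood at 103.9 ± 31.7 CPM in IMP1 and 124 ± 20.7 CPM in Control cells (edgeR adjusted p = 0.703), and Sp3 at 136 ± 36.1 and 99.1 ± 21.7 CPM in IMP1 and Control cells (adjusted p = 0.442).

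Genes of the KLF pathway were set beside all tested genes, of which 0.211% passed by edgeR and 14.3% had an unadjusted p under 0.05. DESeq2 called 7.02% of genes with an adjusted p. At such shares a count of 0 in a short list says little about that list. Of 12 cofactor and turnover genes all 12 were tested and 0 passed by edgeR or DESeq2, with 1 at an unadjusted p under 0.05 (8 positive, median log2 fold change 0.03). Hdac1, the deacetylase of SIN3 complexes, had the lowest p and stood at 254 ± 46.6 CPM in IMP1 and 327 ± 18.8 CPM in Control cells (adjusted p = 0.300). Sin3a stood at 84.8 ± 2.45 and 83.4 ± 35.7 CPM in IMP1 and Control cells (adjusted p = 0.980). Of 10 genes of the ERK5 and MEF2 module, which induces Klf2 and Klf4 in endothelium, 0 passed by edgeR or DESeq2, and 0 had an unadjusted p under 0.05 (5 positive, median log2 fold change 0.04). Its most abundant member Mef2c stood at 431 ± 8.48 CPM in IMP1 and 459 ± 75.9 CPM in Control cells (adjusted p = 0.798).

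Of 14 genes described as KLF targets 12 were tested and 0 passed by edgeR, while DESeq2 called 1, Ccnd1. The median log2 fold change of the 12 was 0.29 (8 positive), and 3 had an unadjusted p under 0.05. Of all tested genes 0.211% passed by edgeR and 14.3% had an unadjusted p under 0.05, and DESeq2 called 7.02% of its genes. Ccnd1, a G1 cyclin gene, had 14.7, 8.08 and 17.6 CPM in IMP1 libraries, against 3.72, 3.84 and 4.24 CPM in Control libraries (edgeR adjusted p = 0.154), with no overlap. Ccnd2 stood at 481 ± 31.0 CPM in IMP1 and 396 ± 33.5 CPM in Control cells (adjusted p = 0.282). These lists were chosen with earlier results of the data known.

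Among 8896 other genes with a mean of at least 10 CPM, those whose log2 CPM followed Klf10 most closely over the 6 libraries were Efna1, H1f0, Nlrp1a, Gem and Plcb2 (Pearson's r 0.981 to 0.992). All 5 share the separation of the groups with Klf10, so the r mixes the genotype with the spread within it. Efna1, an ephrin ligand, had 32.3, 55.4 and 31.1 CPM in IMP1 libraries, against 18.3, 13.6 and 8.37 CPM in Control libraries (edgeR adjusted p = 0.124). None of the 5 was called, with adjusted p from 0.101 to 0.377. With 6 libraries and so many genes, values of r this high are a description only.

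**Figure D4:**
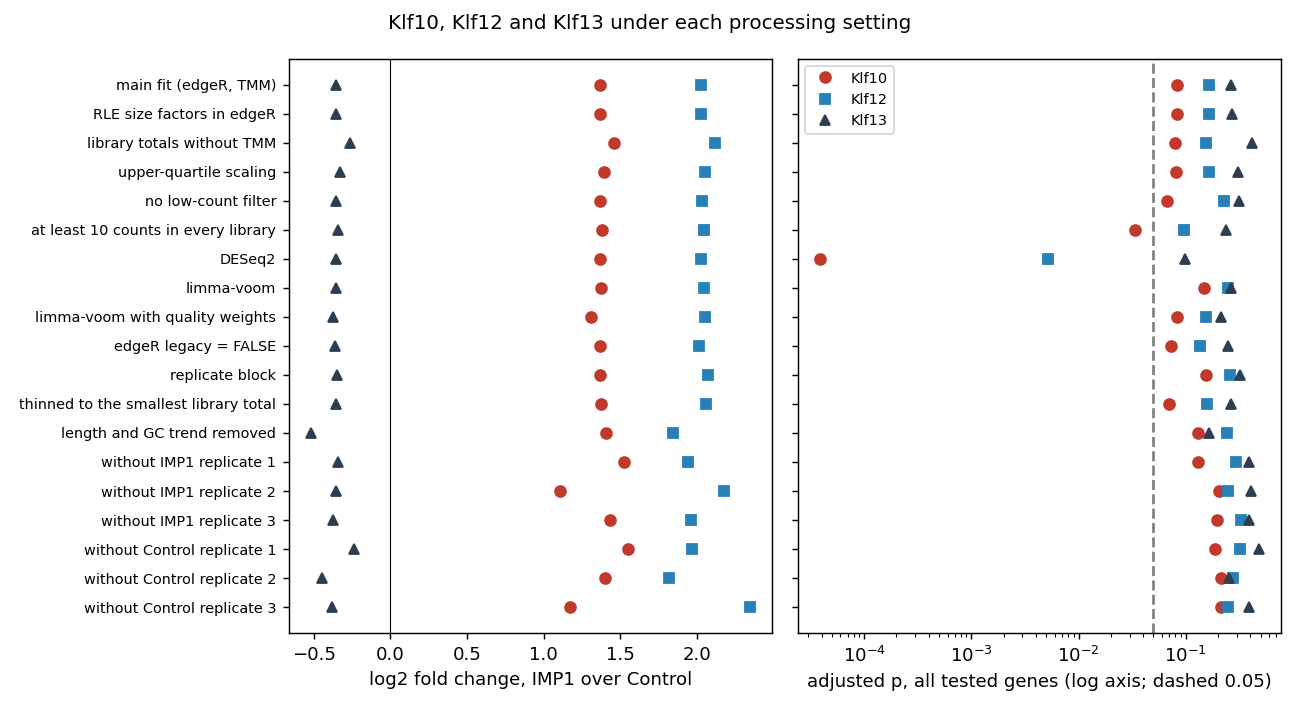
Log2 fold change of IMP1 over Control (left) and adjusted p on a log axis (right, dashed line at 0.05) of Klf10, Klf12 and Klf13 under the reported fit and 18 alternatives (rows). The direction of each is the same in every row, and points left of the line are Klf10 under DESeq2 and under the strict filter and Klf12 under DESeq2.

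Fold changes in these libraries varied with transcript length, with a median log2 fold change from -0.17 in the shortest of 4 bins of genes to 0.17 in the longest. Klf10 (3044 bases) lay in the second bin, with a median of -0.10, and Klf12 (5890 bases) and Klf13 (6396 bases) in the longest. After removal of this trend and that on GC content, the log2 fold changes were 1.41 for Klf10, 1.85 for Klf12 and -0.52 for Klf13, and none was called. Klf3, Klf7, Klf9, Klf10, Klf12 and Klf13 overlap other annotated genes in RefSeq, and the sources used here do not give the strand setting of the counting, so their reads may include those of the neighbours.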

How the data were processed

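RNA from 6 sorted LT-HSC libraries, 3 per genotype, was amplified with the SMARTer Ultra Low RNA kit per the labels' protocols, without molecular identifiers. The deposited table gives unnormalised read counts for 21761 Entrez genes, per the file headers. The submitters' processing notes name TopHat2 2.0.10 and mm9 without their role. How reads were counted, with which strand setting and annotation, is not given in the sources used here. Columns were matched by name to sample titles, with 0 unmatched. Symbols came from RefSeq (GRCm38.p6), matching 21615 identifiers. The longest GENCODE M21 transcript of each gene (GRCm38, found for 20328 genes) supplied its length and GC content.

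Counts were tested with edgeR 4.0.16 in R 4.3.3 (glmQLFit and glmQLFTest, two-sided, defaults), with TMM scaling, filterByExpr and genotype as the single term in 1 fit of all 6 libraries. The filter left 12807 genes, and p-values were adjusted over all of them (Benjamini-Hochberg, threshold 0.05). SE is the absolute log2 fold change over the square root of F, and intervals use the fit's degrees of freedom. CPM are TMM-normalised counts per 1000000. The fit was tested on simulated data.

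Alternatives were DESeq2 1.42.0, limma-voom (limma 3.58.1), the same with quality weights, edgeR with legacy = FALSE, other scalings, filters and thresholds, the replicate number as a block, thinning to 25749898 counts, removal of a loess trend on length and GC content (span 0.4), and each library left out. The named genes were all 10 members and, of each other list, those past the threshold, the 2 of lowest p and the 2 most abundant, of which some are given here. The 5 genes most like the member of lowest p were named. Those most like Klf4, the member of widest spread, were Kctd9, Eprs, Gpat4, Sec24c and Lsg1 (r 0.975 to 0.988). Members and lists were chosen with earlier results of these data known. Duplicate libraries were checked by chi-square per degree of freedom, which was at least 62.9 within groups. Replicates are biological per the labels, and their animals were not named.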

Additional observations from a re-analysis of the deposited data

How the results depend on the processing

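In the reported fit 27 genes and 0 members were called. The count of genes was 16 without TMM scaling, 103 with at least 10 counts in every library, 922 by DESeq2, 11 by limma-voom, 49 with legacy = FALSE, 12 with the length and GC trend removed, 231 at an adjusted p under 0.1 and 1831 at an unadjusted p under 0.05. Leaving out 1 library gave 0 (without Control 3) to 2 genes. Members called were 1 with at least 10 counts in every library (Klf10), 2 by DESeq2 (Klf10 and Klf12), 1 at an adjusted p under 0.1 (Klf10) and 3 at an unadjusted p under 0.05, and 0 in the other settings.

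The direction of Klf7, Klf9, Klf10, Klf11, Klf12 and Klf13 was the same in all 18 alternatives. Klf3 turned negative with limma-voom (-0.17, and -0.25 with quality weights) and after removal of the length and GC trend (-0.035), and ran from -0.26 to 0.58 with 1 library left out. Klf4 turned positive in the same settings (0.91, 0.98 and 0.026) and ran from -1.51 to 4.85 with 1 library left out, and the strict filter removed it. Klf6 turned negative with quality weights (-0.024) and after removal of the trend (-0.055), and ran from -0.27 to 0.33. None of these values was called, and the cause was not tested.

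With the replicate number as a block 4 genes and 0 members were called, Klf3 had a log2 fold change of -0.037 and Klf4 one of 1.72. Correlations of deviations between same-numbered libraries were 0.0149, 0.0310 and -0.00831 for numbers 1, 2 and 3. IMP1 1 and IMP1 2 correlated best with the Control library of their own number, and IMP1 3 with Control 1 (0.0176). Over all IMP1 and Control pairs the values ran only from -0.0302 to 0.0310, so the numbers were not taken to pair the libraries.

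Low counts limit Klf2, whose Control counts summed to 3. The counts of Klf4 were low and differed widely between libraries of one group.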
